A study of Mus musculus with 28 samples.

Results

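Plac8, S100a10, S100a11, S100a6, S100a4, Anxa2, Ahnak, Capg, Vim and Lgals1 are 10 genes of the 23382 listed for each of 28 libraries of total RNA from mouse germinal center B cells. They were taken by symbol as membrane and cytoskeleton genes of memory-type lymphocytes, and some of them were chosen by their measured values, because they were higher with the D370Y allele of Tbl1xr1 but not in the libraries labelled KO. The contrasts of each allele with its own control therefore chose genes, and are given as a description without a p-value. TBL1XR1 is a subunit of the SMRT/NCOR corepressor complex used by BCL6, and the series title names the memory fate of germinal center B cells as the question.

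All libraries came from mice with 1 copy of Cg1Cre, which expresses Cre recombinase from an immunoglobulin heavy chain constant region locus in B cells responding to antigen, so an allele that depends on Cre changes only cells in which Cre was active. The groups were D370Y (heterozygous Tbl1xr1 D370Y, 5 libraries) with its control WT (unmutated Tbl1xr1, 3 libraries), and ImuBcl6 D370Y (the same heterozygous mutation with the ImuBCL6 allele, 5 libraries) with its control ImuBcl6 (ImuBCL6 and unmutated Tbl1xr1, 5 libraries). ImuBCL6 drives Bcl6 from an immunoglobulin heavy chain promoter. The last pair was KO (labelled homozygous Tbl1xr1 KO, 5 libraries) and Cre control (unmutated Tbl1xr1, 5 libraries), whose genotype label is the same as that of WT but whose protocol text names a stranded library kit. The sources used here name no strain, age or animal for the libraries, so a p-value reflects only how far these libraries spread, which may in part be technical.

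Libraries held 19.0 to 37.7 M reads on listed genes, fewest in the D370Y (19.2 to 22.2 M) and WT (19.0 to 19.4 M) groups. KO replicate 3 stood apart, with 64.4% of the authors' denominator on listed genes against 78.7% to 84.6% in the other libraries. Tbl1xr1 itself lay at 135 to 165 CPM (reads scaled to library size) in D370Y and 156 to 176 in WT libraries, at 94.7 to 101.4 in ImuBcl6 D370Y and 106 to 159 in ImuBcl6 libraries, and at 89.7 to 127 CPM in the libraries labelled KO, not below the 80.6 to 94.5 CPM of their Cre controls. Whole-gene CPM cannot show the loss of a single exon, so these levels do not check the label, and KO stands for the libraries so labelled throughout. The 8 germinal center B cell markers summed to 2031 to 4549 CPM per library, with none at 0. Xist marked all 5 D370Y libraries and Y-linked genes all 3 WT libraries, with the opposite arrangement in the ImuBcl6 pair (Y-linked genes in 5 of 5 ImuBcl6 D370Y and Xist in 5 of 5 ImuBcl6 libraries), so that sex and genotype cannot be told apart within either pair, nor between ImuBcl6 and WT or between ImuBcl6 D370Y and D370Y. Y-linked genes marked 3 KO and 1 Cre control library, and Xist the rest.

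The genes encode proteins that work at the inner face of the plasma membrane and on the cytoskeleton. Annexin A2 binds membrane phospholipids in the presence of calcium, and S100A10 is its partner subunit in a complex to which the giant scaffold protein AHNAK also binds. The S100 proteins are small calcium-binding proteins that act by docking onto other proteins, CAPG caps the ends of actin filaments, vimentin forms intermediate filaments, galectin-1 (Lgals1) binds sugars on surface glycoproteins, and PLAC8 is a small cysteine-rich protein. Several of these genes are known to be higher in memory lymphocytes than in naive ones.

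The 4 S100 genes lie within 3 Mb of each other on chromosome 3, while the other 6 genes are on 6 chromosomes (2, 5, 6, 9, 15 and 19). In mm10 Plac8 spans 100553725 to 100572245 on the minus strand of chromosome 5, S100a10 spans 93555080 to 93564643 on chromosome 3, Anxa2 spans 69453620 to 69491795 on chromosome 9 and Ahnak spans 8989284 to 9076914 on chromosome 19, the last 3 on the plus strand. Anxa2 overlaps Gm16144 and Mir3109, and S100a4 overlaps Gm42674, none of which is among the listed genes. A promoter was found for 8 of the 10 genes in the RefSeq table (assembly GRCm38.p6, which mm10 names). The bases just before the annotated gene start are shown for a gene higher with D370Y in both backgrounds (Plac8) and a gene higher in 1 background (Ahnak). They are also shown for the gene lower in both D370Y groups and in KO (Anxa2) and for an S100 gene that changed little (S100a11). They are written 5′ to 3′ on the gene's strand, in lower case, with matches to GGGCGG (GC box) or TGANTCA (AP-1 site) on either strand in capitals.
Plac8, chr5:100572246-100572455, minus strand: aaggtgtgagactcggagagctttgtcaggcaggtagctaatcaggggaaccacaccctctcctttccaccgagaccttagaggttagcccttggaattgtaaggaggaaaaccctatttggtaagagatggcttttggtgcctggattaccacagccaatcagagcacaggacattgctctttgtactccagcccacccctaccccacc
Ahnak, chr19:8989034-8989283, plus strand: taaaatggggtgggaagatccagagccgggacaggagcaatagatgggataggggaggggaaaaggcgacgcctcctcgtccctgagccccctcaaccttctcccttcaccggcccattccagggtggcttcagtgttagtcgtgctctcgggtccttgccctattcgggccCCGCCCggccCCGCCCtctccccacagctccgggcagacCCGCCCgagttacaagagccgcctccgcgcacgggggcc
Anxa2, chr9:69453433-69453619, plus strand: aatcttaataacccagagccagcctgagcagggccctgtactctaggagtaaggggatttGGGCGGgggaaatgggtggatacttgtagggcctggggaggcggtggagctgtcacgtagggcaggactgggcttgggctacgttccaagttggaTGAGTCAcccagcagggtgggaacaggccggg
S100a11, chr3:93520246-93520487, plus strand: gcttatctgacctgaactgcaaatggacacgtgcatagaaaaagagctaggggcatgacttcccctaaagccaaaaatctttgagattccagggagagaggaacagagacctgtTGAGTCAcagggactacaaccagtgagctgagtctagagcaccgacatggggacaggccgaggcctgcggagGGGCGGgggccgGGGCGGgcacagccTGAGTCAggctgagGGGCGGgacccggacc
The stretch before S100a11 (242 bases) held 5 matches, that before Ahnak (250 bases) 3, that before Anxa2 (187 bases) 2 and that before Plac8 (210 bases) 0. These lengths differ, so the numbers of matches are not a ranking. The full window of 250 bases at Anxa2, which runs past the annotated start, held 3 GC boxes and 1 AP-1 site. Of 32851 promoter windows of 250 bases in the table, 32.7% held GGGCGG and 6.75% held TGANTCA on either strand. The core TTCNNNGAA shared by BCL6 and STAT sites was in 7.02% of them and in none of the 9 windows of these genes. A match is a description of letters only.

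Per kilobase of exon, Anxa2 had the highest level of the 10 genes in all 6 groups (94.5 to 158 CPM per kb, group means) and Lgals1 the second highest (51.2 to 102 CPM per kb). Plac8 held rank 3 in ImuBcl6 D370Y cells (89.2 CPM per kb) and rank 4 in ImuBcl6 cells (35.4 CPM per kb). It held rank 4 in D370Y cells (46.6 CPM per kb), against rank 6 in WT cells (17.1 CPM per kb), and rank 6 in both the KO (18.5 CPM per kb) and Cre control (17.5 CPM per kb) groups. At the low end S100a6, S100a4 and Ahnak stayed at or below 1.46 CPM per kb in every group. S100a4 lay at 0.0237 to 0.740 CPM over the 28 libraries, near the 0.0640 to 0.133 CPM that 3 reads were worth, and passed the low-value filter in no comparison. Differences below are of log2(CPM + 1), a scale that understates the change of low genes such as S100a6.

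**Figure D1:**
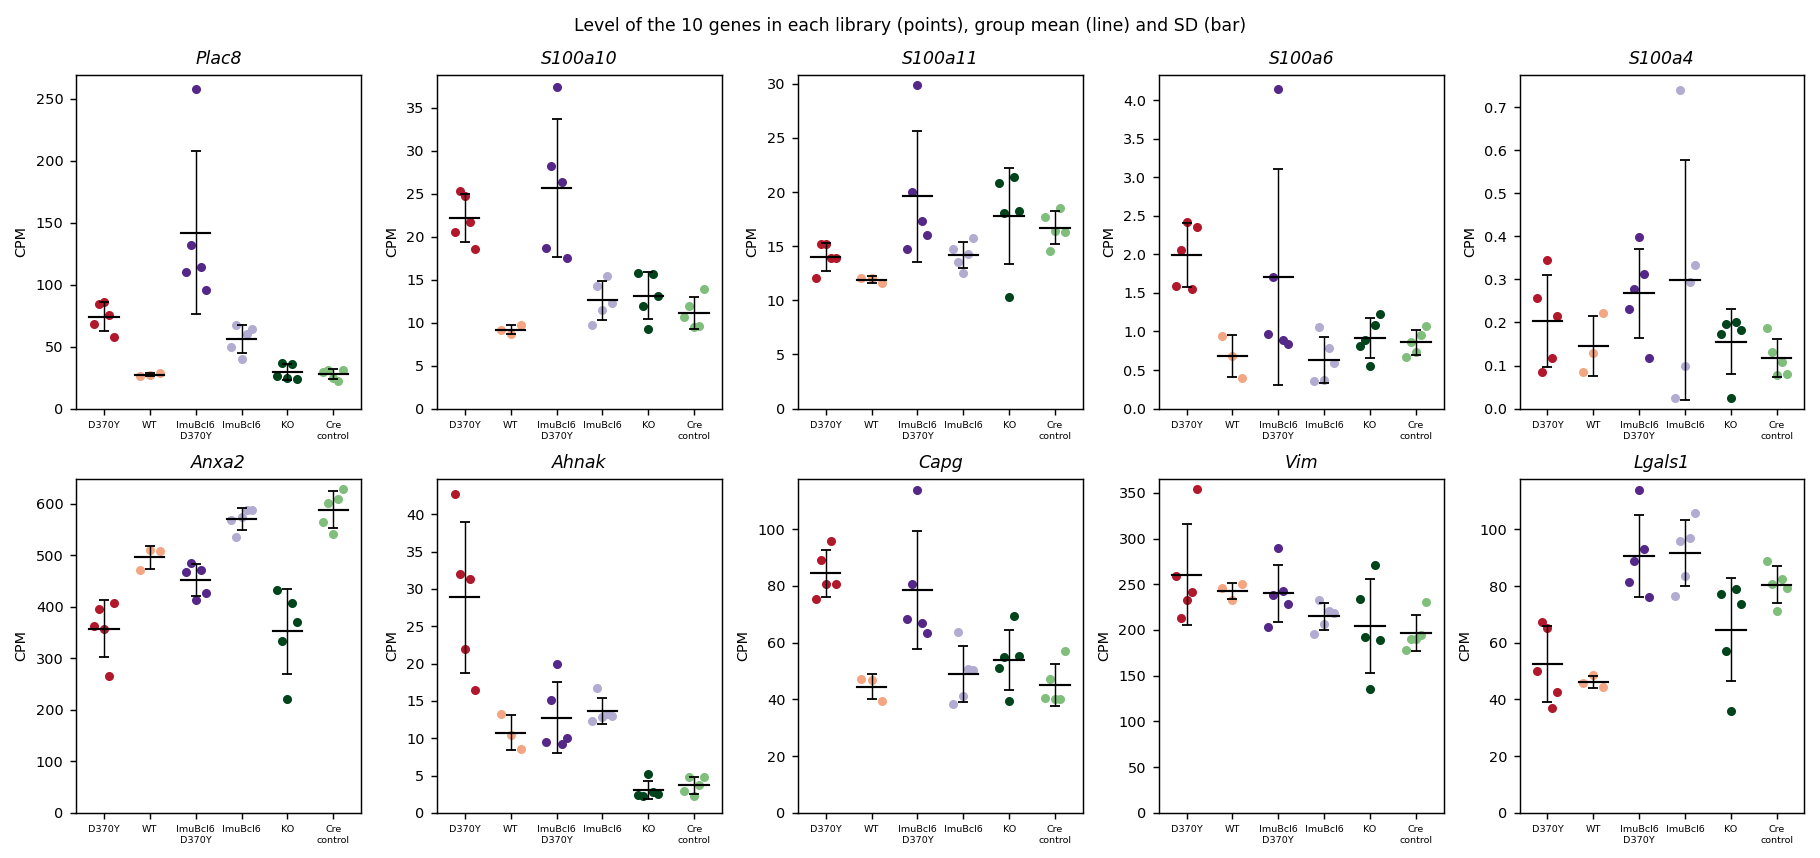
CPM of the 10 genes (one panel each, y axis from 0) in every library of the 6 groups, with each group's mean (line) and SD (bar). Plac8 and S100a10 are higher in both D370Y groups than in their controls, Anxa2 is lower in all 3 allele groups, and Ahnak is lowest in the KO and Cre control groups.

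Plac8 was higher with D370Y in both backgrounds and little different in libraries labelled KO. Its level was 68.2, 84.6, 85.7, 75.2 and 57.5 CPM in the D370Y libraries, against 26.2, 26.9 and 28.5 CPM in the WT libraries. It was 110.1, 132, 258, 114 and 96.1 CPM in the ImuBcl6 D370Y libraries, against 49.4, 67.3, 40.4, 60.1 and 64.2 CPM in the ImuBcl6 libraries. In both pairs every D370Y library lay above every control, and the highest value of all belonged to ImuBcl6 D370Y replicate 3. It was 26.1, 36.7, 24.7, 36.2 and 23.6 CPM in the libraries labelled KO, against 29.7, 31.5, 24.8, 22.4 and 31.0 CPM in the Cre control libraries, and these groups overlapped. The log2 difference was 1.40 ± 0.11 (SE) in D370Y against WT, 1.25 ± 0.23 in ImuBcl6 D370Y against ImuBcl6 (1.01 without ImuBcl6 D370Y replicate 3) and 0.06 ± 0.14 in KO against Cre control. In bulk RNA more cells of a type and more RNA per cell cannot be told apart, here or for the other genes.

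S100a10 was also higher with D370Y in both backgrounds, at lower levels. The D370Y libraries held 20.6, 25.3, 24.8, 21.7 and 18.6 CPM, against 9.17, 8.69 and 9.75 CPM in the WT libraries (log2 difference 1.18 ± 0.10). The ImuBcl6 D370Y libraries held 18.7, 28.2, 37.5, 26.4 and 17.6 CPM, against 9.69, 14.3, 11.5, 15.5 and 12.3 CPM in the ImuBcl6 libraries (0.93 ± 0.18). Neither pair overlapped, and the 2 D370Y groups overlapped each other. The libraries labelled KO held 15.8, 11.98, 9.31, 15.6 and 13.1 CPM, against 10.7, 11.9, 9.46, 9.62 and 13.9 CPM in the Cre control libraries (0.22 ± 0.14). These groups overlapped, and KO replicate 3 was the lowest of its group.

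Anxa2, the gene of the binding partner of S100A10, went the other way, and was lower in both D370Y groups and in KO than in their controls. It was at 362, 396, 357, 266 and 407 CPM in the D370Y libraries, against 470.4, 509.8 and 508 CPM in the WT libraries (log2 difference -0.49 ± 0.12). It was at 468, 484, 412, 471 and 426 CPM in the ImuBcl6 D370Y libraries, against 569, 535, 574, 588 and 587 CPM in the ImuBcl6 libraries (-0.34 ± 0.06). The libraries labelled KO held 433, 333, 221, 406 and 369 CPM, against 565, 601, 541, 608 and 628 CPM in the Cre control libraries (-0.77 ± 0.15, and -0.61 without KO replicate 3). In none of the 3 pairs did any library with an allele reach the lowest library of its control.

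S100a10 per kb was thus a larger share of Anxa2 per kb in both D370Y groups and in the libraries labelled KO than in their controls. The share was 17.5%, 19.7%, 21.4%, 25.1% and 14.1% in the D370Y libraries, against 5.997%, 5.25% and 5.91% in the WT libraries. It was 12.3%, 17.9%, 27.96%, 17.2% and 12.7% in the ImuBcl6 D370Y libraries, against 5.24%, 8.21%, 6.16%, 8.10% and 6.42% in the ImuBcl6 libraries. In the libraries labelled KO it was 11.2%, 11.1%, 12.96%, 11.8% and 10.9%, against 5.82%, 6.11%, 5.39%, 4.87% and 6.81% in the Cre control libraries. No pair overlapped, so the ratio separated the libraries labelled KO from their controls, as Anxa2 alone did and S100a10 alone did not. KO replicate 3, low in both genes, had the highest share of its group. Group means ± SD were 19.5% ± 4.13 in the 5 D370Y and 5.72% ± 0.409 in the 3 WT libraries, 17.6% ± 6.32 and 6.83% ± 1.29 in ImuBcl6 D370Y and ImuBcl6 cells (n = 5 each), and 11.6% ± 0.840 and 5.80% ± 0.734 in libraries labelled KO and Cre control libraries (n = 5 each). The ratio within a library does not depend on that library's depth or scaling. It compares reads, not molecules, and was computed after both genes' levels were known.

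**Figure D2:**
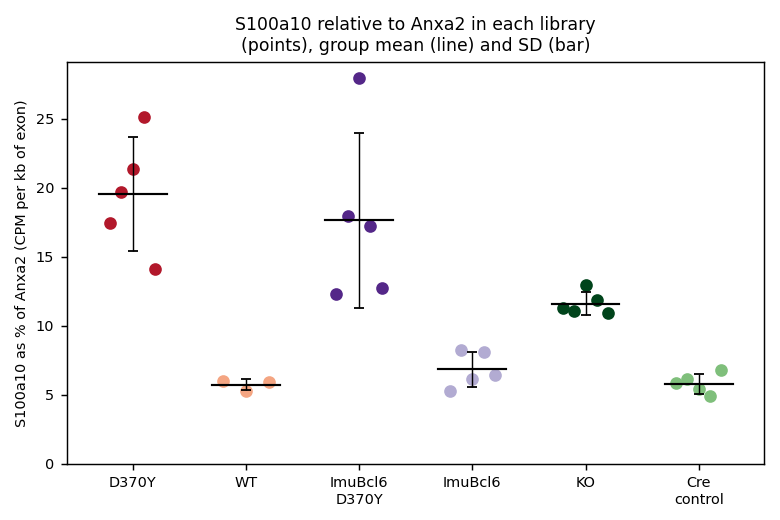
S100a10 as a percent of Anxa2 (both in CPM per kb of exon, y axis from 0) in each library of the 6 groups, with group mean (line) and SD (bar). The libraries labelled KO lie at 10.9% to 12.96%, above all Cre controls (4.87% to 6.81%) and below all D370Y libraries (14.1% to 25.1%). The ImuBcl6 D370Y libraries (12.3% to 27.96%) overlap those labelled KO. Both D370Y groups belong to other pairs than KO, with a different protocol text.

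Ahnak, whose product scaffolds signalling and channel proteins under the membrane, was higher with D370Y in 1 background only. It was at 42.7, 31.9, 21.95, 31.3 and 16.4 CPM in the D370Y libraries, against 13.2, 10.5 and 8.51 CPM in the WT libraries (log2 difference 1.30 ± 0.25). It was at 9.50, 15.2, 19.9, 9.19 and 10.1 CPM in the ImuBcl6 D370Y libraries, against 12.3, 16.7, 12.8, 13.2 and 12.9 CPM in the ImuBcl6 libraries (-0.14 ± 0.18). The first pair did not overlap, and in the second the ImuBcl6 D370Y libraries lay both above and below their controls. The libraries labelled KO held 2.44, 2.31, 5.24, 2.83 and 2.47 CPM, against 2.88, 4.74, 2.20, 3.77 and 4.84 CPM in the Cre control libraries (-0.21 ± 0.19), and these groups overlapped at a far lower level than the others.

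Capg, the actin-capping gene, was higher with D370Y in both backgrounds. The D370Y libraries held 75.5, 89.1, 80.6, 96.0 and 80.7 CPM, against 47.1, 46.8 and 39.3 CPM in the WT libraries (log2 difference 0.91 ± 0.09). The ImuBcl6 D370Y libraries held 68.3, 80.6, 114, 67.0 and 63.3 CPM, against 38.4, 63.7, 41.3, 50.6 and 50.5 CPM in the ImuBcl6 libraries (0.66 ± 0.16). The first pair did not overlap, while in the second ImuBcl6 replicate 2 lay just above the lowest ImuBcl6 D370Y library. The libraries labelled KO held 39.4 to 69.2 CPM, against 40.0 to 57.1 CPM in the Cre control libraries (0.25 ± 0.14).

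S100a6 was low throughout and highest with D370Y. It lay at 1.58, 2.05, 2.42, 1.56 and 2.36 CPM in the D370Y libraries, against 0.947, 0.689 and 0.399 CPM in the WT libraries, without overlap (log2 difference 0.84 ± 0.15). As all WT libraries were below 1 CPM, S100a6 passed the low-value filter there only through the D370Y libraries. In the ImuBcl6 background it was under the filter, at 0.842 to 1.71 CPM in 4 ImuBcl6 D370Y libraries and 4.14 CPM in replicate 3, against 0.356 to 1.05 CPM in the ImuBcl6 libraries. The libraries labelled KO held 0.548 to 1.23 CPM, against 0.673 to 1.07 CPM in the Cre controls.

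The other S100 gene, vimentin and galectin-1 had smaller differences, none of them called by limma (adjusted p below 0.05) in these 3 comparisons as fitted. Because these contrasts chose genes, calls in them are a description from which nothing is read. S100a11 averaged 14.04 ± 1.29 CPM in the 5 D370Y libraries and 11.9 ± 0.303 CPM in the 3 WT libraries (± SD) (log2 difference 0.22 ± 0.09), and 19.6 ± 6.06 and 14.2 ± 1.23 in ImuBcl6 D370Y and ImuBcl6 cells (0.40 ± 0.15, and 0.25 without ImuBcl6 D370Y replicate 3), a difference that DESeq2 called (0.49). Vim averaged 260.3 ± 55.1 CPM in D370Y and 243 ± 8.96 in WT cells (0.08 ± 0.13), 240.2 ± 31.3 in ImuBcl6 D370Y and 215 ± 14.4 in ImuBcl6 cells (0.15 ± 0.08), and 204 ± 51.2 in libraries labelled KO and 197 ± 19.97 in Cre control libraries (0.02 ± 0.15). Lgals1 averaged 52.5 ± 13.4 CPM in D370Y and 46.2 ± 2.12 in WT cells (0.14 ± 0.17, but called at 0.38 with a replicate block), 90.6 ± 14.6 in ImuBcl6 D370Y and 91.7 ± 11.6 in ImuBcl6 cells (-0.02 ± 0.11), and 64.6 ± 18.2 in libraries labelled KO and 80.5 ± 6.44 in Cre control libraries (-0.36 ± 0.18, -0.17 without KO replicate 3, and -0.55 and called with a term for sex-linked transcripts).

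**Figure D3:**
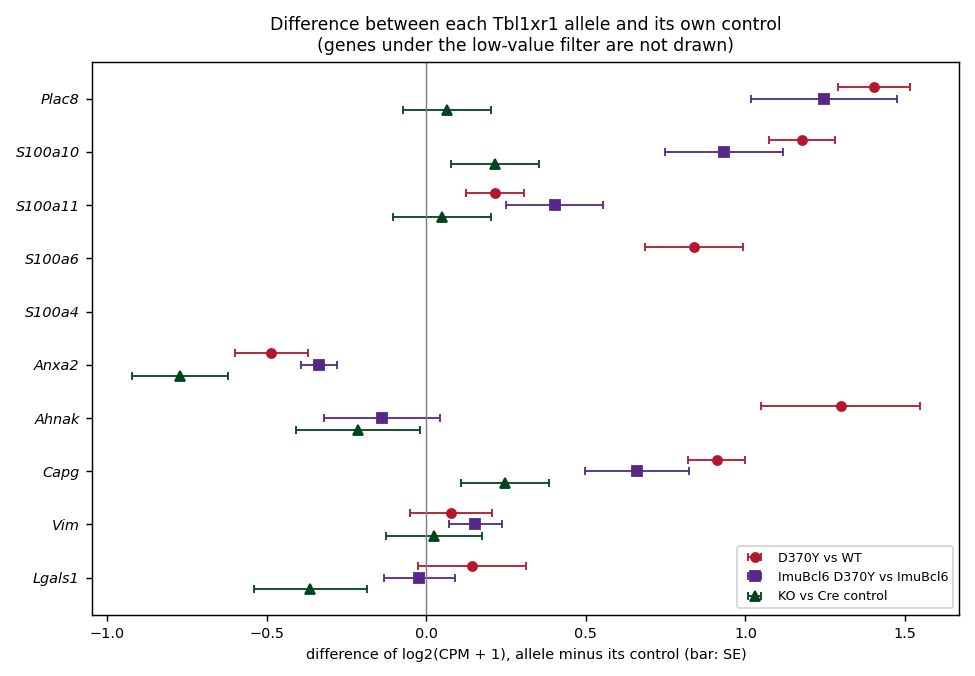
Difference of log2(CPM + 1) between each allele and its own control (x axis, point and SE bar) for the genes that passed the low-value filter in that comparison. Plac8 lies at 1.40 and 1.25 in the D370Y pairs and at 0.06 in KO, while Anxa2 is below 0 in all 3 comparisons.

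By count, limma at an adjusted p below 0.05 called 5 of the 9 genes tested higher and 1 lower in D370Y against WT, where it called 2.6% of all 10600 genes tested higher, 0.943% lower and 3.55% either way. In the same pair 5 genes were higher and 1 lower without overlap of the groups, beside 7.5% and 7.27% of all genes. In ImuBcl6 D370Y against ImuBcl6 it called 3 of 8 higher and 1 lower, beside 2.8% higher, 5.38% lower and 8.18% either way, and 2 higher and 1 lower did not overlap, beside 3.32% and 5.64%. In KO against Cre control it called 0 of 8 higher and 1 lower (Anxa2), beside 0.476% higher, 0.913% lower and 1.39% either way, and 0 higher and 1 lower did not overlap, beside 0.742% and 3.49%. S100a6 was among the 9 genes only through the D370Y libraries, as all WT libraries were below the filter of 1 CPM. Since these contrasts chose genes, nothing is read from the counts. The median log2 difference of the genes tested was 0.84 in D370Y against WT, 0.28 in the ImuBcl6 pair and 0.04 in KO, while that of all genes tested was -0.02, -0.01 and -0.06. Of all genes called in KO, 34.2% were higher as deposited and 46.3% after rescaling by TMM. Without KO replicate 3 the number of genes called in KO was 449 in place of 146, of which 51.9% were higher. Without WT replicate 3 the members called in D370Y against WT numbered 3, S100a6, Anxa2 and Ahnak being lost.

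Set side by side, the KO effect was below the D370Y effect for all 9 genes tested, by -1.34 ± 0.20 (log2, SE) for Plac8, -0.96 ± 0.19 for S100a10, -1.51 ± 0.36 for Ahnak, -0.80 ± 0.19 for S100a6 and -0.66 ± 0.19 for Capg. Of the 9, limma called 2 lower (Plac8 and S100a10) and 0 higher, beside 0.118% lower, 0.0272% higher and 0.145% either way of all 11041 genes tested. The choice of genes by this pattern fixes that direction. The S100a10 call was lost with a replicate block and without D370Y replicate 1, 2, 3 or 4, any one WT library, KO replicate 2 or 5, or Cre control replicate 1, 2 or 5, while Ahnak was called lower without D370Y replicate 5 or KO replicate 3. S100a11 (-0.17 ± 0.20) and Vim (-0.05 ± 0.22) were close to 0. S100a11 moved to 0.01 without KO replicate 3, and Vim was above 0 with TMM (0.02), with a replicate block (0.05) and without KO replicate 3 (0.08), D370Y replicate 5 (0.06) or Cre control replicate 5. Averaged over the backgrounds, in which the sex-linked transcripts are arranged in opposite ways, the D370Y effect was 1.33 ± 0.15 for Plac8, 1.05 ± 0.12 for S100a10, 0.79 ± 0.11 for Capg, 0.73 ± 0.17 for S100a6, 0.58 ± 0.16 for Ahnak, 0.31 ± 0.10 for S100a11 and -0.41 ± 0.07 for Anxa2. In that average limma called 6 of 9 higher and 1 lower, beside 6.23% higher, 6.28% lower and 12.5% either way of all genes, and nothing is read from the counts, since these contrasts chose genes. The S100a11 call was lost with a replicate block and without D370Y replicate 2, 3, 4 or 5, any one WT library, ImuBcl6 D370Y replicate 2 or ImuBcl6 replicate 2, 3 or 4, and the Ahnak call without WT replicate 2 or 3. The D370Y effect in the ImuBcl6 background minus that without ImuBCL6 was -1.44 ± 0.33 for Ahnak and between -0.25 and 0.19 for the other 8 genes, with 0 of 9 called higher and 1 lower, beside 0.0896% higher, 0.573% lower and 0.663% either way of all genes.

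The ImuBCL6 allele at a fixed Tbl1xr1 genotype is a contrast that did not itself choose the genes, though it shares its libraries with the contrasts that did. With or without D370Y, its p-values are therefore not independent of that choice. Plac8 and Lgals1 were higher with ImuBCL6. In ImuBcl6 against WT, Plac8 averaged 56.3 ± 11.2 CPM (SD, n = 5) against 27.2 ± 1.18 (n = 3), with all 5 ImuBcl6 libraries above every WT library (log2 difference 1.002 ± 0.14, limma adjusted p = 0.000213). Lgals1 averaged 91.7 ± 11.6 CPM in ImuBcl6 and 46.2 ± 2.12 CPM in WT cells, again with all 5 libraries above (0.96 ± 0.10, limma adjusted p = 1.51e-05). These calls held under every alternative run. Smaller differences were called for S100a10 (0.40 ± 0.13, limma adjusted p = 0.0239, 5 of 5 libraries above the WT mean), S100a11 (0.23 ± 0.09, 0.0483, 5 of 5), Anxa2 (0.20 ± 0.06, 0.0103, 5 of 5) and, lower, Vim (-0.18 ± 0.07, 0.0405, 5 of 5 below). The S100a11 call was lost without any one library except ImuBcl6 replicate 3, the Vim call without any one WT library or ImuBcl6 replicate 3 or 4, the S100a10 call without WT replicate 1 or 2 or ImuBcl6 replicate 2, and the Anxa2 call without WT replicate 1. All 4 of these calls were lost with a replicate block, those of Vim and S100a11 also with no filter on low values, and that of Vim with edgeR and DESeq2. Ahnak (0.33 ± 0.14, limma adjusted p = 0.0603) was called higher with DESeq2 (0.37), with a replicate block (0.36) and without WT replicate 1 (0.48) or ImuBcl6 replicate 1 (0.36). Ahnak as fitted and Capg (0.12 ± 0.14, 0.5) were not called. The 5 of 8 called higher and 1 lower stand beside 24.7% higher, 28.6% lower and 53.3% either way of all genes tested, and the 4 higher and 0 lower without overlap beside 24.2% and 28.1%, so with so many genes called the counts are no result about the list.

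The same allele on D370Y cells gave 4 genes higher and 1 lower of 9, beside 21.8% and 32.2% of all genes tested (54% in either direction), and 3 higher and 0 lower without overlap, beside 16.3% and 23.4%. Plac8 averaged 142 ± 66.0 CPM in ImuBcl6 D370Y and 74.2 ± 11.8 CPM in D370Y cells (n = 5 each), with no overlap (log2 difference 0.84 ± 0.21, limma adjusted p = 0.00368, and 0.61 without ImuBcl6 D370Y replicate 3). Lgals1 averaged 90.6 ± 14.6 CPM in ImuBcl6 D370Y and 52.5 ± 13.4 CPM in D370Y cells, also with no overlap (0.80 ± 0.15, limma adjusted p = 0.000563). Plac8 was therefore highest in the group with both alleles, whereas Lgals1 was high in both groups with ImuBCL6. Lgals1 was also high without ImuBCL6, at 80.5 ± 6.44 CPM in Cre control libraries and 64.6 ± 18.2 CPM in libraries labelled KO. Anxa2 was higher (0.35 ± 0.10, limma adjusted p = 0.00879, 5 of 5 libraries above the D370Y mean) and so was S100a11 (0.41 ± 0.15, 0.0288, 5 of 5), a call lost without D370Y replicate 1 or 5 or ImuBcl6 D370Y replicate 2 and a difference of 0.26 without ImuBcl6 D370Y replicate 3. Ahnak averaged 12.8 ± 4.69 CPM in ImuBcl6 D370Y and 28.9 ± 10.1 CPM in D370Y cells and was lower in 5 of 5 libraries (-1.11 ± 0.24, limma adjusted p = 0.00143). S100a10 (0.16 ± 0.17), Capg (-0.13 ± 0.13), Vim (-0.10 ± 0.12) and S100a6 (-0.26 ± 0.24) were not called, although without ImuBcl6 D370Y replicate 3 S100a6 (-0.52) and Capg (-0.27) were called lower. S100a6 passed the low-value filter here only through the D370Y libraries, where its mean was higher.

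Both of these contrasts set deeper libraries against shallower ones, and libraries with Xist against libraries with Y-linked genes or the reverse, so that neither sex nor depth can be told apart from ImuBCL6. The gamma-actin gene Actg1, which has near-identical processed copies, averaged 215 ± 7.73 CPM in ImuBcl6 and 10.4 ± 0.684 CPM in WT cells, and 205 ± 9.85 CPM in ImuBcl6 D370Y and 11.9 ± 1.05 CPM in D370Y cells. Its level in the libraries labelled KO and the Cre control libraries, 216 ± 34.5 and 212 ± 5.93 CPM, was that of the ImuBcl6 libraries. The part of such library differences in the changes of Plac8, Lgals1 and Ahnak cannot be told apart from that of ImuBCL6. No Tbl1xr1 allele was compared with its control across them, but both ImuBCL6 contrasts were made across them.

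WT and Cre control share a genotype label, so their difference shows how far these genes vary between control groups with different protocol texts. The groups also differed in sex-linked transcripts, with Y-linked genes in all 3 WT libraries and Xist in 4 of 5 Cre control libraries. They differed in depth too: the highest in WT was 19.43 M reads and the lowest in Cre control 30.03 M. The separate parts of protocol, sex and depth in the differences below were not tested. Ahnak averaged 3.68 ± 1.15 CPM in Cre control and 10.7 ± 2.36 CPM in WT cells, with no overlap (log2 difference -1.34 ± 0.20, limma adjusted p = 4.73e-05, 5 of 5 lower). Lgals1 averaged 80.5 ± 6.44 CPM in Cre control and 46.2 ± 2.12 CPM in WT cells (0.78 ± 0.07, limma adjusted p = 8.93e-08, 5 of 5 higher). Plac8 differed by 0.03 ± 0.10 (95% interval -0.19 to 0.25) and Capg by 0.01 ± 0.11 (-0.23 to 0.25). S100a11 (0.45 ± 0.08, limma adjusted p = 0.0002) and Anxa2 (0.24 ± 0.05, 0.000863) were higher and Vim (-0.31 ± 0.07, 0.0011) lower, each in 5 of 5 libraries. With 77.2% of all genes called between these groups (38.3% higher and 38.9% lower), the 3 of 8 genes called higher and 2 lower are no more than the background, as are the 3 higher and 2 lower without overlap, beside 35.3% and 37.7% of all genes. Rescaling by TMM moved the median of all genes to 0.11 from 0.02 here, and S100a10 (0.24 ± 0.11 as deposited, limma adjusted p = 0.0711) was then called higher at 0.32. Levels of Ahnak and Lgals1, and of S100a11, Anxa2 and Vim, are therefore not comparable across the pairs, whereas the level of Plac8 in the 2 control groups differed by little.

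Most pairs of the genes were positively correlated within groups, as were many pairs of other genes. Over the 28 libraries, deviations from the group mean of log2(CPM + 1) were positively correlated in 26 of the 45 pairs at a Benjamini-Hochberg adjusted p below 0.05 (permutation test, 100000 permutations within groups, two-sided) and negatively in 0, with a median Pearson r of 0.50. Among 8510 other genes with a mean CPM of at least 5 the median r of all pairs was 0.18, and r was at least 0.5 in 23.6% of their pairs and in 48.9% of the 45. By Spearman's rho 15 pairs passed, 14 of them among the 26. Capg and S100a6 had the highest r (0.79, rho 0.77, permutation adjusted p = 0.000675), followed by Capg with S100a10 (0.78, rho 0.71, permutation adjusted p = 0.00169) and Capg with Plac8 (0.77, rho 0.70, permutation adjusted p = 0.00169). Plac8 and S100a10 gave 0.73 (rho 0.67, permutation adjusted p = 0.00378). Without the 2 libraries farthest from the median these 4 pairs stood at 0.70, 0.69, 0.66 and 0.58, and all 26 kept their sign.

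Fewest pairs passed for Ahnak and Anxa2. By Pearson's r Ahnak passed in 0 of its 9 pairs and Anxa2 in 1 of 9, with Lgals1 (r 0.70, rho 0.39). By rho Ahnak passed with Capg (rho 0.48, permutation adjusted p = 0.0446; r 0.36, and 0.47 without the 2 farthest libraries), the pair outside the 26. Between the partners S100a10 and Anxa2, r was 0.36 (rho 0.34, permutation adjusted p = 0.124), and between Anxa2 and Ahnak it was -0.40 (rho -0.21, permutation adjusted p = 0.131). The joint variation rested in large part on 1 library: 8 pairs passed without ImuBcl6 D370Y replicate 3, in which 9 of the 10 genes were the highest of their group, and 20 passed without KO replicate 3, in which 8 were the lowest. After rescaling by TMM 19 pairs passed, all among the 26. Within-group spread was also widest there: leaving S100a4 aside, the median coefficient of variation was 30.9% in ImuBcl6 D370Y and 13.02% in ImuBcl6 libraries, 24.97% in KO and 14.5% in Cre control libraries, and 15.8% in D370Y and 4.58% in WT libraries.

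**Figure D4:**
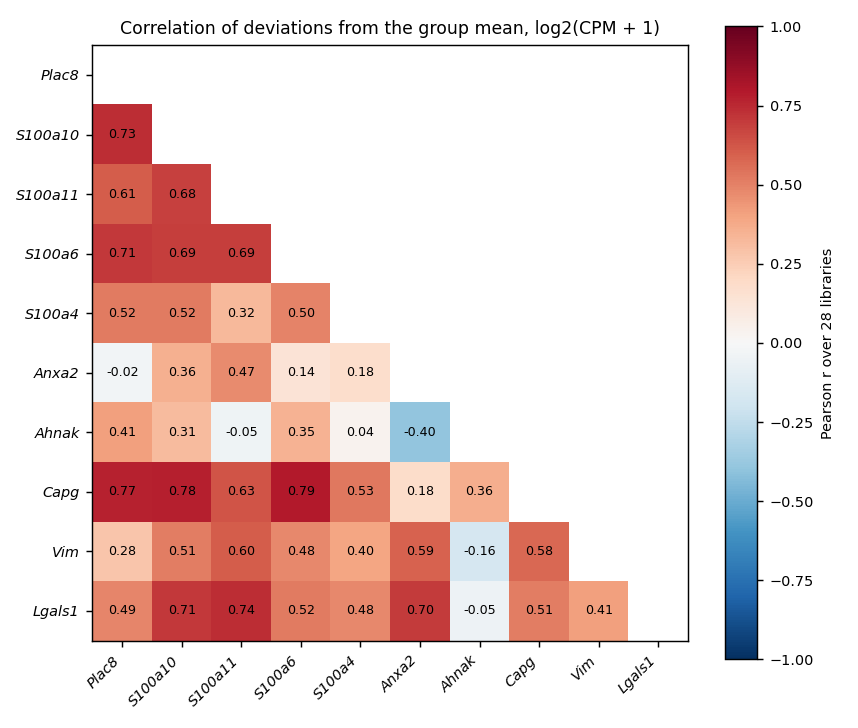
Pearson r between the deviations of 2 genes from their group means (log2(CPM + 1), 28 libraries) for the 45 pairs, from -1 (blue) to 1 (red). Most pairs among Plac8, the S100 genes and Capg lie above 0.5, while no pair of Ahnak exceeds 0.41, and Anxa2 exceeds 0.5 with Vim and Lgals1 only.

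By mean r to the 10 genes, the 8 genes most like them among 8510 others with a mean CPM of at least 5 were Pycard (0.60), Tmbim4 (0.59), Cd3eap (0.59), Ly6d (0.59), Thg1l (0.58), Itm2b (0.58), Tmem9 (0.57) and Cib1 (0.57), where the median of all 8510 was 0.19. Pycard encodes the inflammasome adaptor ASC, Ly6d a B-lineage surface antigen and Cib1 a calcium- and integrin-binding protein. These values describe 28 libraries that share their depth and composition with the genes they are set against.

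Several of the 10 genes are also expressed in myeloid and T cells, so markers of those cells were measured. The 13 myeloid markers found summed to 116 to 139 CPM in D370Y and 69.7 to 82.3 CPM in WT libraries, to 165 to 247 CPM in ImuBcl6 D370Y and 121 to 164 CPM in ImuBcl6 libraries, and to 94.5 to 198 CPM in KO and 111 to 156 CPM in Cre control libraries. Of those tested, 6 of 9 were called higher in D370Y, 4 of 7 in ImuBcl6 D370Y and 0 of 10 in KO against their controls, and none of the 13 was at 0 throughout a group, though Fcgr1, Cd14 and Csf3r were at 0 in some libraries. Mpeg1, a perforin-like gene, made up 59.5% to 86.9% of the sum in the D370Y, WT and ImuBcl6 libraries but 15.2% to 29.1% in the libraries labelled KO and the Cre control libraries. The other 12 summed to 35.5 to 51.3 CPM in D370Y and 16.4 to 21.3 CPM in WT libraries, 32.7 to 57.3 CPM in ImuBcl6 D370Y and 19.4 to 24.2 CPM in ImuBcl6 libraries, and 67.0 to 168 CPM in KO and 85.2 to 124 CPM in Cre control libraries. The macrophage receptor gene Csf1r averaged 24.8 ± 10.3 and 22.1 ± 4.47 CPM in libraries labelled KO and Cre control libraries, and at most 4.99 CPM in the other groups. The highest sums of all 13 were in ImuBcl6 D370Y libraries, and those of the other 12 in the libraries labelled KO and the Cre control libraries. The granulocyte genes S100a8 and S100a9 averaged 0.0387 and 0.0455 CPM over all libraries.

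Within groups Plac8 was the one gene of the 10 whose level went with the summed myeloid markers (r 0.64, rho 0.61, permutation adjusted p = 0.0154 over the 10 genes, and r 0.54 without the 2 farthest libraries). That call was lost without ImuBcl6 D370Y replicate 3 or ImuBcl6 replicate 3. With Mpeg1 left out, a choice made after seeing the data, 6 of 10 genes were called, Plac8 again first (r 0.73, rho 0.79, permutation adjusted p = 0.0007). Anxa2 (r 0.29, rho 0.01) and Ahnak (r 0.09, rho 0.16) were not among them. The 8 T cell markers summed to 120.1 to 182 CPM in D370Y and 127 to 152 CPM in WT libraries, 202 to 263 CPM in ImuBcl6 D370Y and 223 to 308 CPM in ImuBcl6 libraries, and 152 to 240.1 CPM in KO and 203 to 242 CPM in Cre control libraries. Lck made up 94.8% to 99.0% of that sum in every library, so the sum is in effect the level of Lck. Among the others Cd3g was called higher in ImuBcl6 D370Y (5.96 ± 2.67 CPM) than in ImuBcl6 libraries (1.48 ± 0.670 CPM; log2 difference 1.45 ± 0.28, limma adjusted p = 0.00927). None of the 10 genes was called against the sum, with 1 (Lgals1) at an unadjusted permutation p below 0.05. Because the sum follows Lck, nothing about T cell content is read from that. The part of myeloid or T cells in the differences of Plac8 and the S100 genes was not tested.

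**Figure D5:**
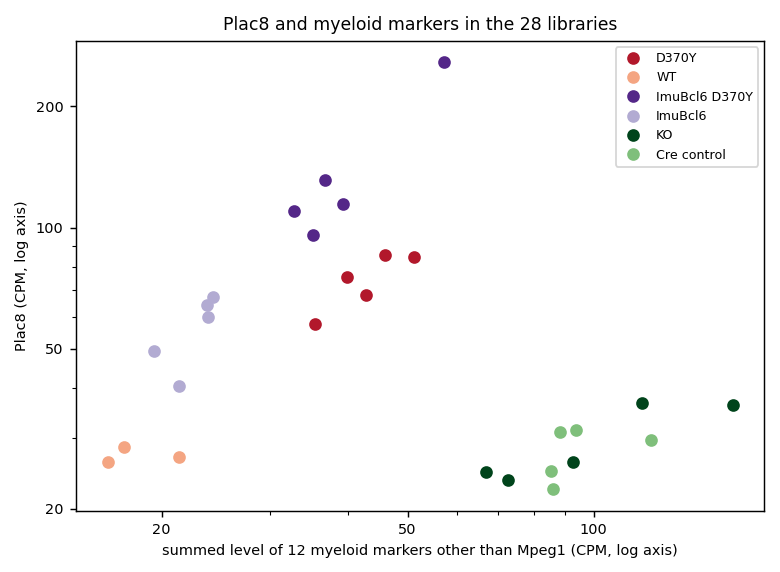
Plac8 (y axis, CPM, log scale) against the summed level of 12 myeloid markers other than Mpeg1 (x axis, CPM, log scale) in the 28 libraries, coloured by group. The KO and Cre control libraries have the highest marker sums (67.0 to 168 CPM) and Plac8 levels of 22.4 to 36.7 CPM, while Plac8 is highest in ImuBcl6 D370Y libraries at 32.7 to 57.3 CPM of the markers.

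Summed markers of germinal center B cells came to 3803 to 4184 CPM in D370Y and 4253 to 4549 CPM in WT libraries, 2644 to 3618 CPM in ImuBcl6 D370Y and 3536 to 4298 CPM in ImuBcl6 libraries, and 2031 to 2404 CPM in KO and 2390.0 to 2583 CPM in Cre control libraries, with overlap in the last 2 pairs. Of the 8, 1 (Gcet2) was called lower in D370Y, 2 (Bcl6 and Gcet2) in ImuBcl6 D370Y and 1 (Gcet2) in KO, each against its control. Of 6 plasma cell markers tested, Irf4 and Prdm1 were called higher in D370Y, 1 in ImuBcl6 D370Y and 0 in KO, each against its control. Their part in the levels of the 10 genes was not tested either.

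Close relatives and other cytoskeleton genes were listed with earlier results known. Of 13 other genes listed with the S100 family, 2 passed the filter in D370Y against WT, 3 in the ImuBcl6 pair and 2 in KO, and 0 were called in any of these comparisons. Of 7 annexins tested Anxa6 alone was called, higher in D370Y (115.9 ± 15.98 CPM against 76.3 ± 8.33 in WT, log2 difference 0.59 ± 0.10, limma adjusted p = 0.00749) and in KO (130.4 ± 28.1 CPM against 81.3 ± 5.24 in Cre control, 0.65 ± 0.14, limma adjusted p = 0.0173), the direction opposite to that of Anxa2. In ImuBcl6 D370Y against ImuBcl6 no annexin of that list was called, and Anxa6 averaged 82.9 ± 13.03 CPM against 65.2 ± 7.30 CPM. Of 4 galectin genes tested Lgals9 (0.77 ± 0.10, limma adjusted p = 0.0015) and Lgals3bp (1.27 ± 0.27, 0.0251) were higher in D370Y than in WT, Lgals8 (0.21 ± 0.06, 0.0433) in the ImuBcl6 pair, and none in KO, with medians of 0.63, 0.27 and 0.18 in the 3 comparisons.

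Of 29 tested genes of the membrane and actin cytoskeleton, 4 were called higher and 0 lower in D370Y, 3 higher and 0 lower in ImuBcl6 D370Y and 0 in KO, each against its control. In D370Y against WT these were the membrane protein gene Emp3 (0.44 ± 0.09, limma adjusted p = 0.012), the myosin gene Myo1f (0.82 ± 0.17, 0.0225), and the focal adhesion genes Vcl (0.68 ± 0.12, 0.00808) and Zyx (0.48 ± 0.10, 0.0234). In the ImuBcl6 pair they were Rdx, which links actin to the membrane (0.71 ± 0.14, limma adjusted p = 0.00984), Vcl (0.54 ± 0.13, 0.0256) and the actin-sequestering Tmsb4x (0.34 ± 0.07, 0.00835). The median log2 difference of the 29 genes was -0.02, -0.06 and -0.07 in the 3 comparisons, about that of all genes. Of 15 surface genes of memory-type lymphocytes, 8 were called higher in D370Y, 4 in ImuBcl6 D370Y and 5 in KO, with 1 lower in KO (Nt5e, -0.51 ± 0.09, limma adjusted p = 0.00676), and medians of 0.49, 0.33 and 0.33. In libraries labelled KO, surface genes of that list such as Klf2 (0.99 ± 0.15, limma adjusted p = 0.0013) and Gpr183 (0.65 ± 0.10, 0.00221) were higher. Plac8 stood at 0.06 ± 0.14 and S100a10 at 0.22 ± 0.14. Some genes of the list that holds Plac8 and S100a10 were chosen for not being higher in KO. Klf2 and Gpr183 were named after their values were seen. The choice thus fixes this contrast in part, and nothing is read from it. The lists' counts stand beside the shares of all genes called given above.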

How the data were processed

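Germinal center B cell RNA from 28 libraries in 6 genotype groups was analysed. The authors deposited 1 table per library of CPM (read counts scaled to library size) for 23382 genes, as the file contents show; STAR and mm10 are named in the submitters' processing notes, and the sources used here do not give the counting tool, its strand setting or filters. The deposited CPM were whole multiples of 1 read within 0.01 of a read, which gave 19.0 to 37.7 M reads per library on listed genes, so that 3 reads were worth 0.0640 to 0.133 CPM. Intervals cover counting or library spread only.

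Genes with a CPM of at least 1 in as many libraries as the smaller group were tested with limma 3.58.1 (R 4.3.3; trend, robust) on log2(CPM + 1), two-sided, with Benjamini-Hochberg adjustment over all genes tested. Each fit held the libraries of its own groups. Correlations used deviations from group means and 100000 permutations within groups. Alternatives were a pseudocount of 0.25, no filter, TMM rescaling, a replicate block, leaving out each library, and edgeR 4.0.16 or DESeq2 1.42.0 on the recovered reads. The scripts were tested on simulated data. Same-numbered libraries deviated together at r of -0.26 to 0.50 across the comparisons, not above 0.1 in every pair of any comparison, so the numbers were not taken as pairs. Gene lengths and positions are from GENCODE M21, promoters from RefSeq (GRCm38.p6).

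The 10 genes and all lists were chosen with earlier results of these data known. Genes of the related lists were named where they had the 3 highest mean levels of a list or the 3 largest called differences between groups differing in ImuBCL6 or protocol; others (such as Emp3, Vcl, Klf2 and Nt5e) were named after their values were seen, as members of a short list of calls.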

Additional observations from a re-analysis of the deposited data

Results flagged for a closer look

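Of 50 combinations of gene and group with 5 libraries, 5 held 1 library far from the other 4, where chance gives about 1 in 20. In ImuBcl6 D370Y replicate 3, Plac8 was at 258 CPM (the other 4 at 96.1 to 132 CPM) and S100a6 at 4.14 CPM (the other 4 at 0.842 to 1.71 CPM). In KO replicate 3, Ahnak was at 5.24 CPM (the other 4 at 2.31 to 2.83 CPM) and S100a4 at 0.0238 CPM, which is 1 read. In ImuBcl6 replicate 2, Ahnak was at 16.7 CPM (the other 4 at 12.3 to 13.2 CPM).

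Differences between effects were called by limma for 3 genes. They restate the pattern by which the genes were chosen, and are given as a description from which nothing is read. The KO effect was below the D370Y effect by -1.34 ± 0.20 (log2, SE) for Plac8 and by -0.96 ± 0.19 for S100a10, a call lost in 12 of the fits without 1 library and with a replicate block. The D370Y effect on Ahnak was lower in the ImuBcl6 background by -1.44 ± 0.33. No p-value is given, since these contrasts served to choose the genes.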

How the results depend on the processing

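Of the values of single genes under the alternatives run, 1024 kept their direction and their side of the threshold, 69 kept their direction but lost the call, 14 gained one and 29 reversed, none of them called. Those reversed with the replicate number as a block were Vim in D370Y against WT (-0.051), Capg in Cre control against WT (-0.055) and Vim in the KO minus D370Y effect (0.054, and 0.021 with TMM), and with the sex-linked term S100a11 (-0.11) and Vim (-0.10) in KO. The others reversed without 1 library, over which Vim ran from -0.039 to 0.14 in D370Y against WT, -0.088 to 0.16 in KO, -0.17 to 0.015 in ImuBcl6 D370Y against D370Y and -0.165 to 0.085 in the KO minus D370Y effect. S100a11 ran from -0.025 to 0.22 in KO and -0.24 to 0.0063 in that effect, Plac8 from -0.019 to 0.13 in KO and -0.0202 to 0.098 in Cre control against WT, Capg from -0.077 to 0.055 in Cre control against WT, and Lgals1 from -0.11 to 0.037 in ImuBcl6 D370Y against ImuBcl6. Leaving out 1 library at a time, the genes of the list called numbered 3 to 6 in D370Y against WT (3 without WT replicate 3), 3 to 4 in ImuBcl6 D370Y against ImuBcl6, 1 to 1 in KO against Cre control, 3 to 6 in ImuBcl6 against WT (3 without WT replicate 1 or 2), 4 to 7 in ImuBcl6 D370Y against D370Y and 5 to 6 in Cre control against WT. The correlated pairs numbered 8 (without ImuBcl6 D370Y replicate 3) to 27, the genes correlated with the myeloid sum 0 (without ImuBcl6 D370Y replicate 3 or ImuBcl6 replicate 3) to 4 (without KO replicate 5), and those with the T cell sum 0 to 2 (without ImuBcl6 D370Y replicate 3). With no filter 0 of the genes were called in KO (Anxa2 lost at -0.77), and with a term for sex-linked transcripts 2 (Anxa2 and Lgals1). With the replicate number as a block, which is not a pairing known from the labels, 3 were called in ImuBcl6 against WT in place of 6, and 764 of all genes in D370Y against WT in place of 376. With Mpeg1 left out of the myeloid markers, an alternative chosen after seeing the data, 6 genes were called, and 6 also with TMM rescaling. The causes were not tested. Over all genes, calls in D370Y against WT were 659 with DESeq2, 219 with no filter and 124 to 149 without a WT library. In KO they were 455 with DESeq2, 238 with edgeR, 86 with no filter and 449 without KO replicate 3, beside 146. In ImuBcl6 D370Y against ImuBcl6 they were 1378 with DESeq2 (45.3% higher, beside 34.2% of 882) and 434 to 546 without ImuBcl6 replicate 3 or ImuBcl6 D370Y replicate 2 or 3. Low depth limits S100a4, near the level of 3 reads, and S100a6. With 3 WT libraries, contrasts with WT rest on few samples.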
